A study of Mus musculus with 15 samples.

Results

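Ribosome biogenesis and nucleolar genes were followed as a fixed list of 44 mouse genes in CT26 cells, a mouse colon carcinoma line, among the 34432 genes measured. The members are named by symbol and had to be present in both tables of normalized counts, which all 44 were. The list was drawn up with earlier results of these data known. RNA was sequenced from 15 libraries in 2 experiments. In the knockdown experiment, 3 shControl libraries, from cells carrying a control hairpin, were set against 3 shPrmt1 libraries, from cells carrying a hairpin against Prmt1, the gene of protein arginine methyltransferase 1. The Prmt1 hairpin was carried as a tet-inducible construct in a stable line and was switched on by 3 days of doxycycline. Whether the shControl cells also received doxycycline is not stated in the labels. In the inhibitor experiment, wild-type CT26 cells with Prmt1 intact received vehicle, MS023 or GSK3368715, with 3 libraries each. MS023 and GSK3368715 are small molecules that inhibit type I arginine methyltransferases, the enzymes that place asymmetric dimethylarginine, and both were given at 6 µM for 48 hours. The question put to the data was whether lowering or inhibiting PRMT1 was accompanied by a change in the transcripts of the ribosome assembly machinery.

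Ribosomes are built mostly in the nucleolus. RNA polymerase I transcribes the ribosomal RNA precursor, box C/D and box H/ACA small nucleolar ribonucleoproteins (snoRNPs) guide its methylation and pseudouridylation, and a succession of assembly factors folds and cuts it into the small and the large subunit. Several of the proteins in this machinery, among them fibrillarin and nucleolin, carry arginine- and glycine-rich stretches that arginine methyltransferases modify, and many of the genes are known MYC targets that growing tumor cells express at high levels.

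The recovered reads on genes ran from 17284091 to 29233738 per knockdown library and from 40119305 to 93697833 per inhibitor library. All 44 members passed the filter on low values (10 normalized counts in 3 or more libraries) in both experiments and entered the tests, with a lowest control mean of 738 (Dimt1 in shControl cells). Prmt1 itself had 5646 ± 62.2 (SD, n = 3) normalized counts in shControl cells and 704 ± 49.8 (SD, n = 3) in shPrmt1 cells, and 15611 ± 488, 14826 ± 661 and 15489 ± 806 in vehicle, MS023 and GSK3368715 cells. Replicate libraries differed by more than counting error, with a chi-square per degree of freedom of 4.31 to 78.4, so none was a copy of another. The library shPrmt1 2 stood apart from its replicates, at 23.5 and 22.4 against 4.37 for the other pair, and so did vehicle 2, at 78.4 and 45.7 against 20.9. Of the markers of colon epithelium, 2 of 10 reached a mean of 10 normalized counts in shControl and shPrmt1 cells and 4 or 5 of 10 in the inhibitor experiment. Krt18 and Krt20 were the largest of them, with means of 572 and 178 in shControl and 941 and 389 in vehicle cells. Epcam, Cdh1, Krt19, Cdx1 and Vil1 were at 0 in all shControl libraries. Fibroblast markers summed to between 101442 and 107040 normalized counts in shControl and between 89282 and 108016 in shPrmt1 libraries, with Vim and Col1a2 the largest of them. Thy1 was at 0 in all shControl libraries and Dcn had a mean of 1.07 there. The endothelial markers summed to 11.5 to 12.3 normalized counts in shControl and 2.42 to 8.002 in shPrmt1 libraries, and the leukocyte markers to at most 279.9 in any library.

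The sequences just upstream of the members were examined first. Promoters of 38 of the 44 members were matched by symbol in the RefSeq table of GRCm38.p6, which is mm10. The 250 bases before the first listed start were read on the coding strand. Rrs1, Tcof1, Rrp12, Fbl, Bop1 and Npm1 were not matched, so their upstream sequences were not examined. Among them, Rrs1, Tcof1 and Rrp12 had the lowest fold changes of the list with MS023 (-0.62, -0.48 and -0.47). Shown are the upstream sequences of Nop56 (chr2:130274162-130274411, plus strand), which was lower in all 3 comparisons, Nop10 (chr2:112261676-112261925, plus strand), lower in the knockdown and with MS023, and Utp4 (chr8:106893390-106893639, plus strand), the largest called decrease of the knockdown. Nop2 (chr6:125131633-125131882, plus strand) and Imp4 (chr1:34439579-34439828, plus strand) are shown because they alone among the 38 hold CACGTG, the canonical E-box read by MYC. Capitals mark CACGTG and the ETS-type motif CCGGAAG or its reverse complement CTTCCGG.
Nop56: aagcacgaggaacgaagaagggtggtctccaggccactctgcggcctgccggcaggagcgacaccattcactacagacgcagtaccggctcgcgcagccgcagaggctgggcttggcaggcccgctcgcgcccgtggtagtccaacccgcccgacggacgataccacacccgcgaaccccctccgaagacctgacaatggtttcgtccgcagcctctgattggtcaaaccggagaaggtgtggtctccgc
Nop10: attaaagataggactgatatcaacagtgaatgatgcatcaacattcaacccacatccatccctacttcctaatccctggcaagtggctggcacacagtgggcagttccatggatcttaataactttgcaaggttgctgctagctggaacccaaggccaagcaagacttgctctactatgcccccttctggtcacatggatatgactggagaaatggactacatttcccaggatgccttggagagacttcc
Utp4: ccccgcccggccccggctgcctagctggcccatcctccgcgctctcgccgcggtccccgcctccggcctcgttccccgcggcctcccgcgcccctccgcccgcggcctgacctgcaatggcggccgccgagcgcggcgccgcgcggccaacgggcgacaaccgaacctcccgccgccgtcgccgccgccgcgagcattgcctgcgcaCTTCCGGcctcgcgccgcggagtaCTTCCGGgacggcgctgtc
Nop2: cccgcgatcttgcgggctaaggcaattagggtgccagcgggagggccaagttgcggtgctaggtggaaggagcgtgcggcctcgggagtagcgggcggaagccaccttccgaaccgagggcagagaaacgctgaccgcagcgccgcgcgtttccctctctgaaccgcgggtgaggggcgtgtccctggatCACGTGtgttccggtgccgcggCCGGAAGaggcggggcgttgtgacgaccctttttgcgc
Imp4: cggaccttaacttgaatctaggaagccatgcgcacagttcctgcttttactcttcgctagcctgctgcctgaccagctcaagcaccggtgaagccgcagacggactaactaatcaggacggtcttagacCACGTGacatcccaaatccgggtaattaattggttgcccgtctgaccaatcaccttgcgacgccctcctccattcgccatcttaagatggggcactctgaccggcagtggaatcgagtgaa

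CACGTG, which reads the same on both strands, was found in 2 of 38 members (5.26%), beside 8.23% of the 9699 promoters of genes tested with the inhibitors and 6.05% of all 27025 promoters. Neither Imp4 nor Nop2 passed the test in any comparison. The ETS-type motif, searched on both strands, was found in 9 of 38 members (23.7%), beside 14.4% of promoters of the tested genes. Its holders were Ddx10, Emg1, Gar1, Grwd1, Heatr1, Nhp2, Nolc1, Nop2 and Utp4, with 2 copies each in Emg1 and Utp4. In Utp4 the copies began 43 and 19 bases upstream of the start, and in Nop2 CACGTG lay at 60 and CCGGAAG at 38 bases upstream. Nop56 and Nop10 held neither. The median GC content of the members' upstream sequences was 57.4%, beside 59.6% for the tested genes. These matches describe the letters in the window and were not tested against the fold changes.

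With Prmt1 knocked down, few ribosome biogenesis genes passed the test. Utp4, Nop10, Nop56 and Rrs1 fell, by 0.37, 0.35, 0.34 and 0.23 on the log2 scale, while Wdr12 and Nop58 rose by 0.23 and 0.19. Utp4 is a small subunit processome protein, Nop10 and Nop56 are snoRNP core proteins, and Rrs1 and Wdr12 act in large subunit assembly. The 4 members called lower are 9.09% of the list, beside 7.17% of all 11485 genes tested by limma at an adjusted p under 0.05, and the 2 called higher are 4.55%, beside 7.5%. The count called lower was 2 with equal totals (5.8% of all genes) and 1 without the variance trend (5.43%). With the replicate number as a block it was 9 (11.5% of all genes). By edgeR 3 members were lower and 2 higher (7.1% and 7.8% of all genes), and by DESeq2 6 and 2 (9.16% and 9.57%). At an unadjusted p under 0.05, 11 were lower and 2 higher, beside 15.7% and 15.5%. Log2 fold changes below 0 were seen in 29 of 44 members (50.6% of all genes, with 49.4% above 0), with a median of -0.085 (all genes, -0.0036) and a range from -0.41 to 0.23, and the median standard error was 0.077. All shPrmt1 libraries lay below all shControl libraries in 14 members (31.8%, beside 18.9% of all genes) and above them in 3 (6.82%, beside 19.2%). The libraries are bulk RNA, so fewer cells with a transcript and less of it per cell cannot be told apart. No call survived every single-library omission: the members called lower numbered 0 without shControl 1 (2.47% of all genes), 0 without shControl 2 (3.61%), 2 without shControl 3 (2.72%), 2 without shPrmt1 1 (5.7%), 2 without shPrmt1 3 (4.71%) and 6 without shPrmt1 2 (11.4%). Those called higher numbered 0 without shControl 1, 2 or 3 or shPrmt1 3 (3.24%, 4.14%, 3.62% and 4.74% of all genes), 1 without shPrmt1 1 (5.52%) and 2 without shPrmt1 2 (10.4%). The share of all genes called thus moved with these omissions too. The median fold change was -0.042 without shPrmt1 2, -0.056 without shControl 1 and -0.053 with equal totals. Markers of colon epithelium summed to 729 to 812 normalized counts in shControl and 544 to 669.9 in shPrmt1 libraries. Among them 1 of 2 tested was called lower and 0 higher, with a list median of -0.23. Of the fibroblast markers 1 of 4 tested was called higher and 0 lower, with a list median of -0.10. Col1a1 went from 2116 ± 239 to 4207 ± 994 (SD, n = 3), while the means of the others were lower in shPrmt1 cells, with Col1a2 at 33525 and 31151, Pdgfra at 268 and 186 and Vim at 68130.4 and 64325. The part of these markers in the results was not tested.

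With MS023, Rrs1, Tcof1, Rrp12 and Nop56 were the members with the largest decreases. Among the members, 14 of 44 fell (31.8%, beside 14.1% of the 13014 genes tested called lower), and none rose (0 by limma, edgeR and DESeq2 and 0 at an unadjusted p under 0.05, beside 13.7% of all genes called higher by limma). The log2 fold change was lowest in Rrs1 (-0.62), Tcof1 (-0.48), Rrp12 (-0.47) and Nop56 (-0.46), and 65.3% to 72.8% of the vehicle level of these 4 transcripts remained. The other members that fell were Nop10, Bysl, Wdr43, Dkc1, Gnl3, Mybbp1a, Noc2l, Fbl, Nhp2 and Utp15, by 0.21 to 0.34 on the log2 scale. edgeR called 14 lower and DESeq2 20 (13.8% and 15.9% of all genes, with 14% and 15.1% called higher). At an unadjusted p under 0.05, 23 were lower, beside 20.1% of all genes, with 20.2% higher. Log2 fold changes were below 0 in 42 of 44 members (49.5% of all genes, with 50.5% above 0), the exceptions being Noc4l (0.045, adjusted p = 0.636) and Wdr12 (0.10, adjusted p = 0.339), and the median was -0.17 (all genes, 0.0028). All MS023 libraries lay below all vehicle libraries in 25 members (56.8%, beside 22.1% of all genes, with 22.4% of all genes wholly above). The number called lower was 7 without MS023 2 (9.49% of all genes), 9 without MS023 3 (10.3%) and 11 without vehicle 3 (10.3%). Without vehicle 2 the number was 13 (13.5%), and without vehicle 1 it was 17 (13.1%). It was 5 (11.4%, beside 8.3% of all genes) with every library rescaled to the same upper quartile, a scaling that moved the median of all genes to 0.062 and that of the members to -0.11. Rrs1, Nop56, Tcof1, Rrp12 and Wdr43 passed in the 20 alternatives that were run, and the other 9 calls were lost under the upper quartile scaling. Markers of colon epithelium summed to 1789 to 1879 normalized counts in MS023 libraries, against 1286 to 1449 with vehicle. Among them 2 of 5 tested were called higher and 0 lower, with a list median of 0.065. Of the markers with a mean of 10 or more with MS023, Krt18 went from 941 to 1372, Krt20 from 389 to 405 and Krt8 from 7.43 to 24. The means of Lgals4 (33.9 and 31) and Cdx2 (15.5 and 10.8) were lower with MS023. Fibroblast markers summed to 302664 to 332234 with MS023 and 328322 to 344609 with vehicle, and 2 of 5 tested were called lower and 0 higher, with a list median of 0.026. Col1a1 went from 18543 ± 518 to 13071 ± 1955 (SD, n = 3) and Col1a2 from 121881 ± 1158 to 104658 ± 8388, while the means of Pdgfra (826 and 1091), Vim (196573 and 200055) and Dcn (23.5 and 35.1) were higher with MS023. The part of these markers in the results was not tested.

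With GSK3368715, Rrs1 (-0.45), Nop56 (-0.37), Rrp12 (-0.27), Tcof1 (-0.26) and Wdr43 (-0.17) fell, which is 5 of 44 members (11.4%, beside 4.47% of all genes called lower). None rose, by limma, edgeR or DESeq2 or at an unadjusted p under 0.05 (0 of 44, beside 5.16% of all genes called higher by limma). edgeR called 4 lower and DESeq2 6 (4.4% and 6.68% of all genes, with 5.14% and 7.23% called higher). At an unadjusted p under 0.05, 14 were lower, beside 13% of all genes, with 13.1% higher. Values below 0 were seen in 39 members (49.9% of all genes, with 50.1% above 0), with a median of -0.10 (all genes, 4e-04), which was -0.061 without GSK3368715 2. All GSK3368715 libraries lay below all vehicle libraries in 16 members (36.4%, beside 14.1% of all genes) and above them in 1 (beside 13.7%), which was Nop58 (0.026, adjusted p = 0.784). The calls of Rrs1 and Nop56 held in all 20 alternatives. The number called lower was 3 without vehicle 1 (3.55% of all genes), 2 without vehicle 3 (2.03%), 4 without vehicle 2 (4.88%), 3 without GSK3368715 1 (2.74%) and 2 without GSK3368715 2 (3.21%). MS023 libraries enter this test through the pooled spread, and the number was also 3 without MS023 1 (3.56%), 3 without MS023 2 (3.32%) and 2 without MS023 3 (3.37%), where 2 of 44 is 4.55%. MS023 and GSK3368715 share their vehicle libraries, so the likeness of both sets of decreases was not tested. Colon epithelial markers summed to between 1449.85 and 1617 normalized counts in the GSK3368715 libraries, against 1285.58 to 1449.43 with vehicle, so the ranges almost touched. Among them 1 of 5 tested was called higher and 0 lower, with a list median of 0.12. Of the markers with a mean of 10 or more with GSK3368715, Krt18 (941 and 1137), Krt8 (7.43 and 12.8) and Cdx2 (15.5 and 16.8) had higher means than with vehicle. The means of Krt20 (389 and 341) and Lgals4 (33.9 and 23.6) were lower. Fibroblast markers summed to between 317935 and 345832, against 328322 to 344609 with vehicle, with 0 of 5 called, and the part of these markers was not tested.

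**Figure D1:**
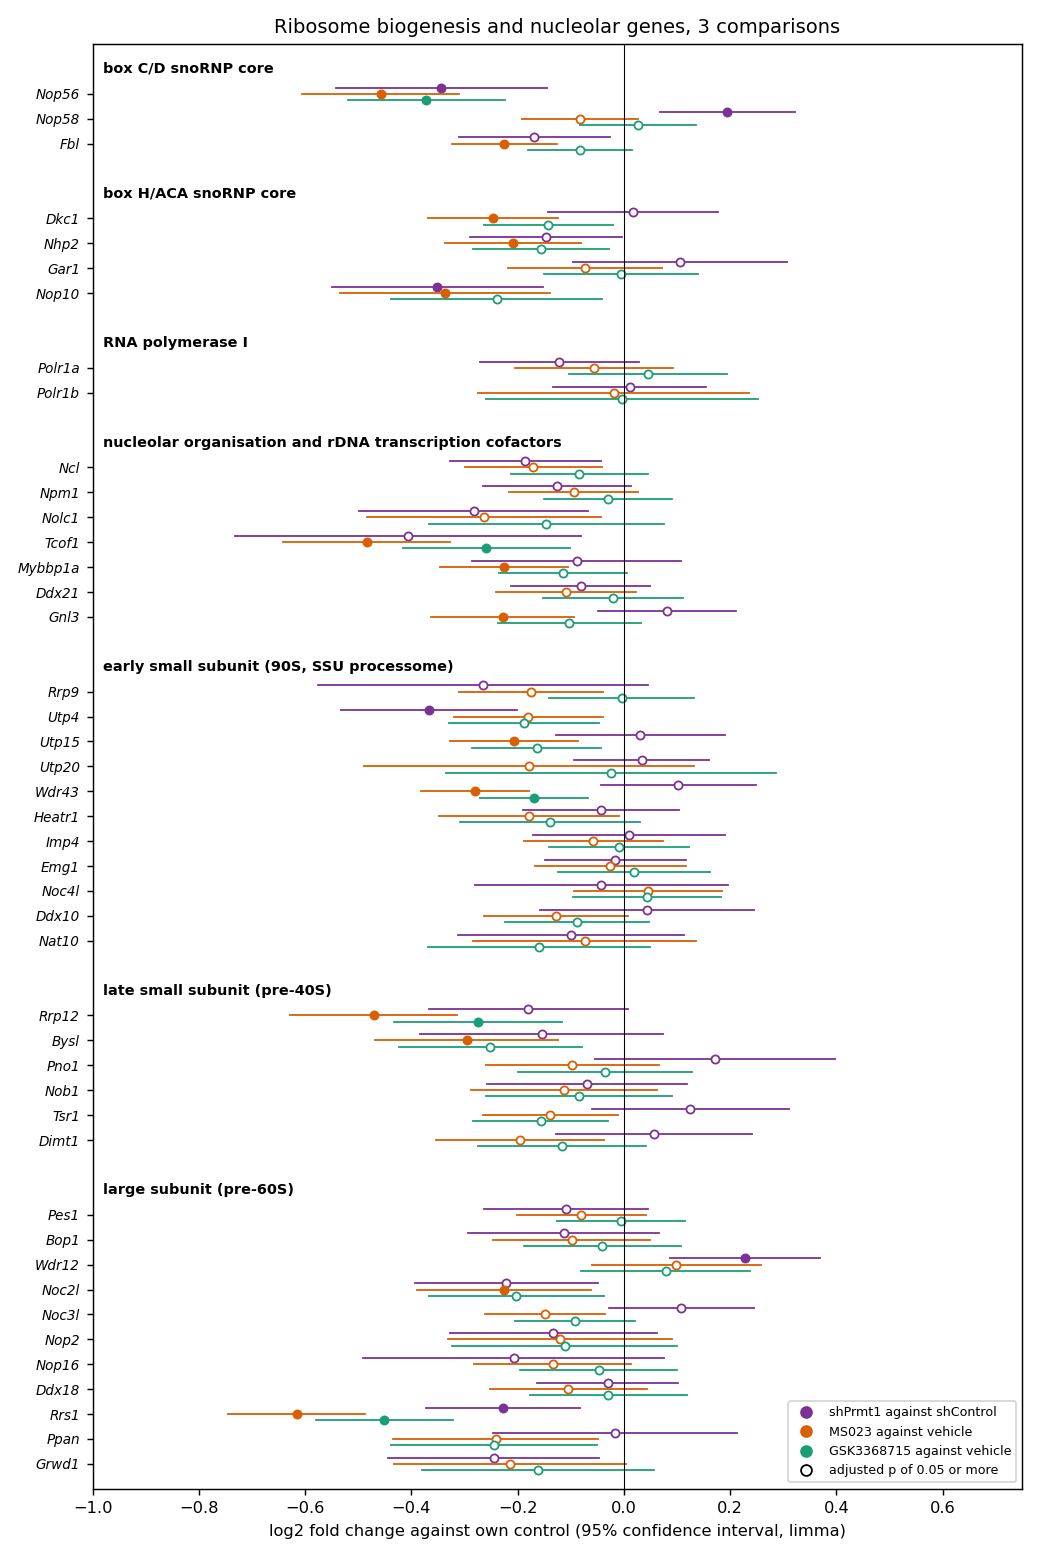
Log2 fold change of each of the 44 genes against its own control (x axis) with the 95% confidence interval from limma, grouped by role; purple is shPrmt1, orange MS023 and green GSK3368715, and filled points passed an adjusted p of 0.05. The MS023 points lie left of 0 in 42 of 44 genes, with Rrs1 farthest at -0.62, while the shPrmt1 points lie on both sides.

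MS023 and GSK3368715 were compared directly at the same dose and time. No member passed the test between them (0 of 44 higher and 0 lower by limma, edgeR and DESeq2, beside 0.315% and 0.2% of all genes by limma, 0.315% and 0.215% by edgeR and 1.67% and 1.23% by DESeq2). At an unadjusted p under 0.05, 6 members were higher with GSK3368715 than with MS023 (13.6%, beside 7.1% of all genes) and 0 were lower (beside 6.13%). They were Fbl, Tcof1, Rrs1, Rrp9, Rrp12 and Wdr43. The largest difference was that of Tcof1, 0.22 on the log2 scale (95% confidence interval 0.068 to 0.38, unadjusted p = 0.00934, adjusted p = 0.21), followed by Rrp12 at 0.20 (0.039 to 0.35, adjusted p = 0.273). For Rrs1 the difference was 0.16 (0.036 to 0.29, adjusted p = 0.264) and for Nop56 0.086 (-0.061 to 0.23, adjusted p = 0.631). Values above 0 were found in 38 of 44 members (51.4% of all genes, with 48.6% below 0), with a median of 0.066 (all genes, 0.0046). This median was 0.019 under the same upper quartile, 0.11 without GSK3368715 2 and 0.11 without MS023 1. GSK3368715 libraries lay above all MS023 libraries in 6 members (13.6%, beside 11.4%, with 9.95% of all genes wholly below). These intervals leave room for differences as large as 0.38 in Tcof1, so the compounds are not shown to act alike on these transcripts.

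**Figure D2:**
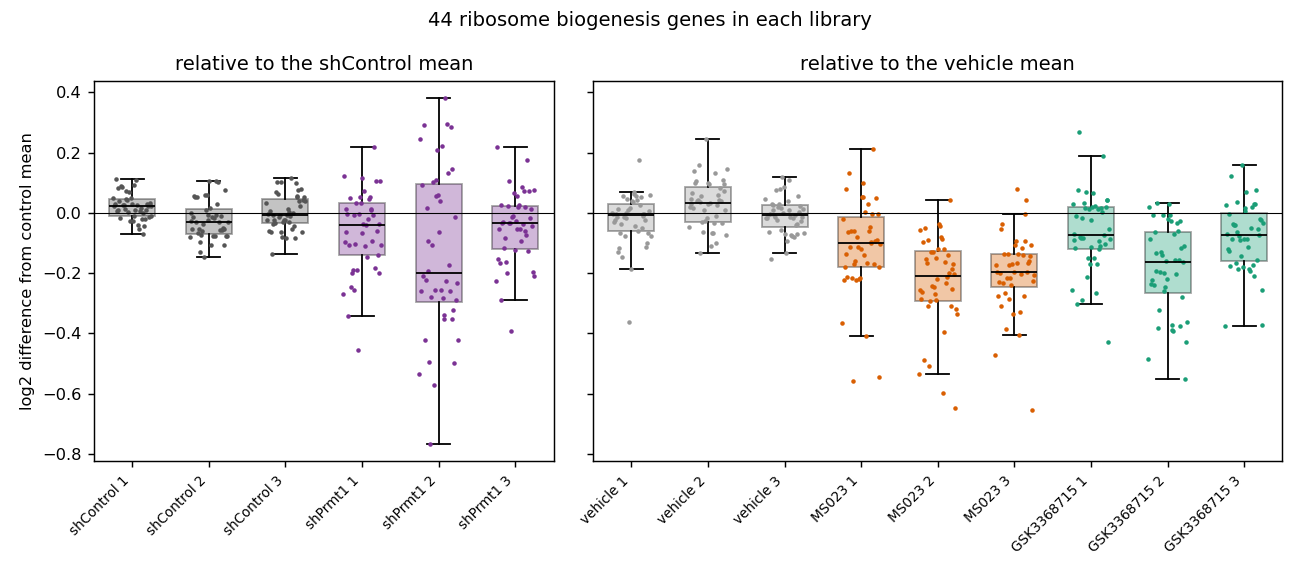
Log2 difference of each of the 44 genes (points) from the mean of its control group in every library, with boxes for the quartiles; the left panel holds the knockdown and the right panel the inhibitor experiment. The mean over the genes was -0.062, -0.13 and -0.047 in shPrmt1 1, 2 and 3, with the widest spread in shPrmt1 2, and -0.11, -0.23 and -0.20 in the MS023 libraries.

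The mean log2 difference of the 44 genes from the control mean shows how evenly the libraries of a group moved. It was -0.062, -0.13 and -0.047 in shPrmt1 libraries 1, 2 and 3, against 0.021, -0.023 and 0.0017 in the shControl libraries. MS023 libraries 1, 2 and 3 were at -0.11, -0.23 and -0.20 and GSK3368715 libraries at -0.063, -0.19 and -0.079, against -0.023, 0.031 and -0.0085 in the vehicle libraries. In shPrmt1 2 the list spread in both directions, from -0.77 in Tcof1 to 0.38 in Pno1, although 28 of its 44 genes were below the control mean, beside 29 in each of shPrmt1 1 and 3. Of the MS023 libraries, 35, 43 and 42 of 44 genes lay below the vehicle mean. In the GSK3368715 libraries the numbers were 27, 41 and 33, with library 2 the highest.

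The box C/D snoRNP core guides ribose methylation of ribosomal RNA and consists here of Nop56, Nop58 and the methyltransferase Fbl (fibrillarin). Nop56 (ENSMUSG00000027405, chr2:130274430-130279313, plus strand, mm10) had 9930.2, 9074 and 9821 normalized counts in shControl libraries 1, 2 and 3 and 7975, 6625 and 8200.4 in the shPrmt1 libraries. No shPrmt1 library reached a shControl library, and the difference was -0.34 (standard error 0.087, adjusted p = 0.0339 from limma). Vehicle libraries held 23429, 22643 and 24194, MS023 libraries 18171, 16146 and 16878 and GSK3368715 libraries 19615, 16744 and 18035. Both inhibitor groups lay below the vehicle group, at -0.46 (standard error 0.067, adjusted p = 0.000826) for MS023 and -0.37 (standard error 0.067, adjusted p = 0.00776) for GSK3368715. The knockdown call was lost without shControl 1, 2 or 3, with equal totals and without the trend of variance on level, where the adjusted p rose to at most 0.13, and both inhibitor calls held in all alternatives, at 1.4e-08 to 0.00604 and 2.18e-05 to 0.0373. Annotated snoRNAs lie within exons of Nop56, and Idh3b on the opposite strand overlaps it by 5 bp.

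Nop58, the partner of Nop56 in the same particle, went the other way in the knockdown. Its 9166, 9026 and 8884 normalized counts in shControl libraries compare with 9823, 10691 and 10496 in shPrmt1 libraries, an increase of 0.19 (standard error 0.055, adjusted p = 0.0495 from limma). The increase was lost without any one of shControl 1, 2 or 3 or shPrmt1 3, and under 3 of the other settings, with an adjusted p of up to 0.193. With vehicle it had 19196, 19533 and 19041, with MS023 19008, 18516 and 17100.3 and with GSK3368715 19669, 19534 and 19632 normalized counts. The fold changes were -0.082 (standard error 0.05, adjusted p = 0.247) with MS023 and 0.026 (standard error 0.05, adjusted p = 0.784) with GSK3368715, neither past the threshold. Fbl had 4443, 4272 and 4334 normalized counts in shControl and 4068, 3633 and 3915 in shPrmt1 libraries (-0.17, standard error 0.062, adjusted p = 0.106), groups that did not overlap and did not pass. In the inhibitor experiment Fbl had 10087, 10631 and 10182 with vehicle, 8819, 8629 and 8991 with MS023 and 9673, 9691 and 9799 with GSK3368715. It fell with MS023, by 0.22 (standard error 0.044, adjusted p = 0.00417 from limma), a call lost under the upper quartile scaling (adjusted p = 0.079), and with GSK3368715 it was at -0.083 (standard error 0.044, adjusted p = 0.267). The Fbl transcript is 99.6% identical over 57.6% of its length to a transcript annotated to Tulp4, so reads may have been divided between these genes. Their sum changed by -0.23 with MS023, by -0.11 with GSK3368715 and by -0.033 in the knockdown, where Fbl alone was at -0.17. Tulp4 had the larger counts (mean 17250 against 9611 in the inhibitor experiment), so the sum does not settle the value of Fbl.

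The box H/ACA snoRNP core directs pseudouridylation and is also part of telomerase. Dkc1 (dyskerin), its pseudouridine synthase, had 5628, 5015 and 4998 normalized counts in shControl and 5254, 5549 and 5017 in shPrmt1 libraries, which overlapped (0.017, standard error 0.07, adjusted p = 0.887). With the inhibitors it had 8442, 7856 and 7905 for MS023 and 9105, 8123 and 8808 for GSK3368715, against 9416, 9760.4 and 9529.7 for vehicle. It fell with MS023 (-0.25, standard error 0.055, adjusted p = 0.00789 from limma), a call lost under the upper quartile scaling (adjusted p = 0.0961), while the value for GSK3368715 was -0.14 (standard error 0.055, adjusted p = 0.131). Nop10 (ENSMUSG00000027133, chr2:112261926-112263269, plus strand), the smallest protein of the core, had 859, 842 and 737 normalized counts in shControl libraries and 639, 605 and 664 in shPrmt1 libraries, a difference of -0.35 (standard error 0.087, adjusted p = 0.0309) that was lost without shControl 1 or 2 or shPrmt1 1 or 3 or without the variance trend (adjusted p up to 0.136). In the inhibitor experiment Nop10 was at 2151, 2344 and 1918 with vehicle, 1840.1, 1518 and 1718 with MS023 and 1727, 1805 and 1884 with GSK3368715. It fell with MS023 (-0.34, standard error 0.089, adjusted p = 0.018), a call that did not hold without MS023 2 or vehicle 2 or under the upper quartile scaling (adjusted p up to 0.0752), and with GSK3368715 its value was -0.24 (standard error 0.089, adjusted p = 0.118) with no overlap between the groups.

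Gar1, the H/ACA protein that binds close to the catalytic subunit, did not pass in any comparison. Its shControl libraries held 2302, 2377 and 2187 normalized counts and its shPrmt1 libraries 2282, 2801 and 2329 (0.10, standard error 0.088, adjusted p = 0.454), with library shPrmt1 2 above the rest, and the value was 0.011 without that library and 0.16 without shPrmt1 1. Gar1 had 5005, 5117 and 5047 with vehicle, 5339.6, 4726 and 4401 with MS023 and 5020.4, 5035 and 5047 with GSK3368715, and these groups overlapped at -0.073 and -0.0063. Nhp2, the remaining H/ACA protein, fell with MS023 (-0.21, standard error 0.058, adjusted p = 0.0211 from limma), and that call was lost without vehicle 2, MS023 2 or MS023 3 (adjusted p up to 0.193). Its values were -0.15 (standard error 0.062, adjusted p = 0.15) in the knockdown and -0.16 (standard error 0.058, adjusted p = 0.117) with GSK3368715. In sum 2 of 3 box C/D and 3 of 4 box H/ACA genes fell with MS023 (14.1% of all genes did) and 1 of 3 and 0 of 4 with GSK3368715 (4.47%). In the knockdown 1 of each fell (7.17%), and 1 box C/D gene, Nop58, rose (7.5%).

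Polr1a and Polr1b, the catalytic subunits of RNA polymerase I, did not pass in any of the comparisons. For Polr1a the shControl libraries held 4384, 4176 and 4248 and the shPrmt1 libraries 3967, 3656 and 4167 normalized counts (-0.12, standard error 0.066, adjusted p = 0.245), without overlap, and the difference was -0.07 without shPrmt1 2. Polr1a was at 8736, 10231 and 9752 with vehicle, 9134, 9233 and 9197 with MS023 and 10079, 9139 and 10388 with GSK3368715, with overlapping groups and differences of -0.056 and 0.045. Polr1b had 1549, 1626 and 1529 normalized counts in shControl and 1621, 1584 and 1534 in shPrmt1 libraries (0.011). With vehicle, MS023 and GSK3368715 it had 2606, 3036 and 2846, then 3092, 2541 and 2753, then 3399, 2472 and 2661. The Polr1b groups overlapped throughout, and the 95% confidence interval of -0.27 to 0.24 with MS023 covers a change in either direction. The sign of Polr1b flipped under the upper quartile scaling in all 3 comparisons and under equal totals with both inhibitors, and that of Polr1a with MS023 flipped under the upper quartile scaling.

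**Figure D3:**
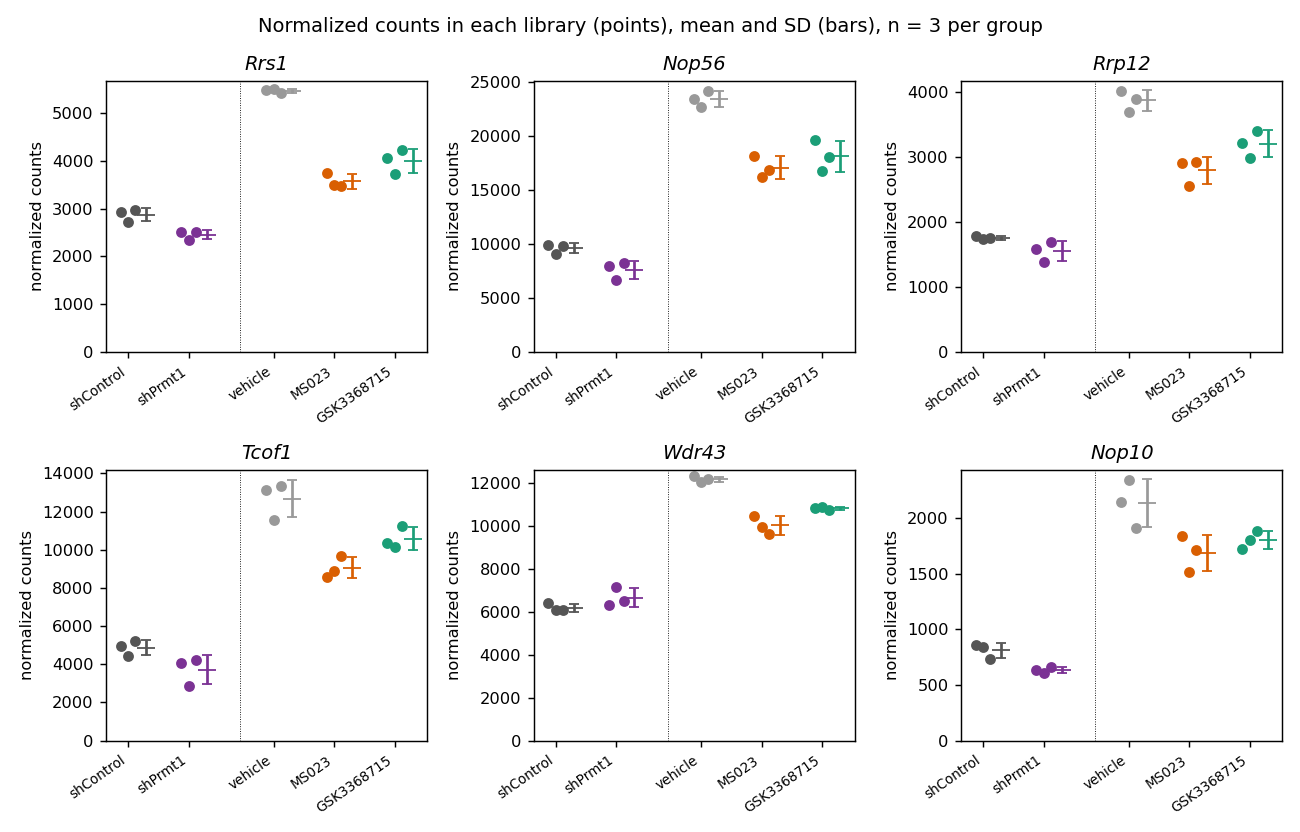
Normalized counts (y axis, linear and starting at 0) of 6 genes in each library (points), with the mean and SD of the 3 libraries of each group (bars); knockdown and inhibitor experiments were normalized separately and are divided by a dotted line. For Rrs1, Nop56, Rrp12, Tcof1 and Wdr43 every MS023 and GSK3368715 library lies below every vehicle library, and Nop10 is lower in shPrmt1 than in shControl libraries.

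A further 7 members organise the nucleolus or act with ribosomal DNA transcription. Tcof1 (treacle, ENSMUSG00000024613, chr18:60813755-60848971, minus strand), a scaffold for RNA polymerase I factors, had the lowest fold change of the knockdown, which did not pass the test. It had 4944, 4436 and 5209.9 normalized counts in shControl libraries and 4065, 2852 and 4229 in shPrmt1 libraries, with shPrmt1 2 far below its replicates (-0.41, standard error 0.14, adjusted p = 0.0924 from limma). Without shPrmt1 2 the value was -0.23 and passed (adjusted p = 0.0433), as it did with DESeq2 (-0.39, adjusted p = 0.0389) but not with edgeR. The knockdown value also passed in limma with the replicate number as a block (adjusted p = 0.00786). In vehicle libraries it had 13155, 11546 and 13321, in MS023 libraries 8590.5, 8901 and 9676 and in GSK3368715 libraries 10351, 10124 and 11269.6. Tcof1 fell with MS023 (-0.48, standard error 0.071, adjusted p = 0.000862), which held in all alternatives, and with GSK3368715 (-0.26, standard error 0.071, adjusted p = 0.0449), which was lost without vehicle 1 or 3, GSK3368715 1 or 2 or any MS023 library and under 4 of the other settings (adjusted p up to 0.15). Ncl (nucleolin), an abundant RNA-binding protein, was at 79420.5, 71224 and 73434 in shControl and 62859, 65334 and 68795 in shPrmt1 libraries. The difference, -0.19 (standard error 0.062, adjusted p = 0.0812), did not pass, although the groups did not overlap.

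Ncl had 136812, 147185 and 145974 normalized counts with vehicle, 132486, 127667 and 121798 with MS023 (-0.17, standard error 0.058, adjusted p = 0.0506 from limma) and 135416, 130621 and 139588 with GSK3368715 (-0.084, standard error 0.058, adjusted p = 0.404). The MS023 value of Ncl passed in 5 alternatives, among them edgeR (adjusted p = 0.032), DESeq2 (adjusted p = 0.0111) and the omission of vehicle 1 (adjusted p = 0.0329). Npm1 (nucleophosmin), a chaperone of the granular component of the nucleolus, had 57061, 51893 and 52569 in shControl and 46798, 50481 and 50749 in shPrmt1 libraries (-0.13, standard error 0.061, adjusted p = 0.199), and -0.083 without shControl 1. Its inhibitor experiment values were 114274, 120867 and 116706 with vehicle, 112507, 110255 and 106702 with MS023 and 110593, 119977 and 114119 with GSK3368715, at -0.095 and -0.03 with neither past the threshold. Npm1 and Ncl were the most abundant members per length. The length was that of the longest transcript annotated as principal, which was 8202 bp for Ncl and 10012 bp for Wdr12. The shControl mean per kilobase was 32970.4 for Npm1, 9107 for Ncl, 5269 for Nop58, 5119 for Nop56 and 3634 for Fbl. The lowest was Wdr12 at 234, and these values depend on that choice of length.

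Of the remaining nucleolar genes, Mybbp1a, which binds RNA polymerase I and MYB, and Gnl3 (nucleostemin), a nucleolar GTP-binding protein of stem and tumor cells, fell with MS023. The values were -0.23 (standard error 0.054, adjusted p = 0.0111 from limma) for Mybbp1a, lost without MS023 2 (adjusted p up to 0.114 over the alternatives), and -0.23 (standard error 0.061, adjusted p = 0.0182) for Gnl3, lost without vehicle 3, MS023 2 or MS023 3 (up to 0.173). Nolc1, a snoRNP chaperone, was at -0.26 (standard error 0.10, adjusted p = 0.0725) with MS023 and -0.28 (standard error 0.094, adjusted p = 0.0803) in the knockdown. The RNA helicase Ddx21 was between -0.11 and -0.021 in the 3 comparisons. With GSK3368715, Mybbp1a, Gnl3, Nolc1 and Ddx21 lay at -0.11, -0.10, -0.15 and -0.021 and none passed.

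The early small subunit assembly factors, 11 members, form the large processome on the nascent precursor. Utp4 (ENSMUSG00000041438, chr8:106893636-106923088, plus strand), a subunit of the complex that first binds the precursor, was the member called lower with the largest change in the knockdown. It had 2516, 2613 and 2402 normalized counts in shControl libraries and 1829, 2102 and 1914 in shPrmt1 libraries, -0.37 (standard error 0.073, adjusted p = 0.0135 from limma). The groups were well apart, and the call was lost only without shControl 1 or shControl 2 (adjusted p up to 0.067). With the inhibitors, Utp4 was at 5434, 5300.3 and 5064 for vehicle, 4977, 4443 and 4535 for MS023 and 4537, 4393 and 4945 for GSK3368715. Neither difference passed, at -0.18 (standard error 0.064, adjusted p = 0.0568) and -0.19 (standard error 0.064, adjusted p = 0.0894), though neither inhibitor group overlapped the vehicle group. That of MS023 passed with DESeq2 (adjusted p = 0.0416) and without MS023 1 (adjusted p = 0.0376). Wdr43 (ENSMUSG00000041057, chr17:71615895-71659031, plus strand), from the same complex as Utp4, did not pass in the knockdown: 6405, 6089 and 6084 in shControl and 6332, 7150.1 and 6486 in shPrmt1 libraries gave 0.10 (standard error 0.064, adjusted p = 0.311), with overlapping groups, and 0.05 without shPrmt1 2.

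In the inhibitor experiment Wdr43 had 12301, 12028 and 12161 normalized counts with vehicle, 10479, 9945 and 9637 with MS023 and 10814, 10891 and 10749 with GSK3368715. Its replicates lay close together, and it fell with MS023 (-0.28, standard error 0.046, adjusted p = 0.0016 from limma) and with GSK3368715 (-0.17, standard error 0.046, adjusted p = 0.0442). The first call held in all alternatives, and the second did not hold without any one of the vehicle or GSK3368715 libraries or without MS023 2 or 3, nor under 7 of the other settings, edgeR among them (adjusted p up to 0.196). Utp15, a further subunit of this complex, fell with MS023 (-0.21, standard error 0.055, adjusted p = 0.0177), which was lost without vehicle 3, MS023 2 or MS023 3 (adjusted p up to 0.175), and was at -0.16 (standard error 0.055, adjusted p = 0.0858) with GSK3368715 and 0.031 (standard error 0.07, adjusted p = 0.794) in the knockdown. Utp20, a very large scaffold protein, had the largest coefficient of variation of the members in the vehicle libraries, 9078, 13828 and 12690.5, against 10041, 10537 and 10384 with MS023 and 11778, 9857 and 13036 with GSK3368715. Its differences of -0.18 (standard error 0.14, adjusted p = 0.379) and -0.025 (standard error 0.14, adjusted p = 0.932) did not pass. Without vehicle 1, the lowest of its group, the MS023 value was -0.36 and passed (adjusted p = 0.0225), and it was -0.057 without vehicle 2 and -0.12 without vehicle 3. In the knockdown it had 6041, 6415 and 6028 and 6388, 6404 and 6121 (0.033, standard error 0.056, adjusted p = 0.715). The remaining early factors (Rrp9, Heatr1, Imp4, Emg1, Noc4l, Ddx10 and Nat10) did not pass in any comparison, with log2 fold changes from -0.27 (Rrp9 in the knockdown, adjusted p = 0.222) to 0.045 (Noc4l with MS023).

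Among the 6 late small subunit factors, Rrp12 and Bysl fell with MS023. Rrp12 (ENSMUSG00000035049, chr19:41862851-41896173, minus strand), which takes part in maturation and export of the small subunit, had 1789, 1734 and 1745 normalized counts in shControl and 1586, 1389 and 1690.3 in shPrmt1 libraries. The groups did not overlap but the difference, -0.18 (standard error 0.082, adjusted p = 0.176 from limma), did not pass, and it was -0.10 without shPrmt1 2. Vehicle libraries had 4018, 3691 and 3892, MS023 libraries 2908, 2552 and 2918 and GSK3368715 libraries 3211, 2985 and 3399.6. The difference was -0.47 (standard error 0.071, adjusted p = 0.00101) with MS023, held in all alternatives, and -0.27 (standard error 0.071, adjusted p = 0.0368) with GSK3368715, lost without vehicle 1 or 3, GSK3368715 1 or 2 or MS023 1 or 3 and under 3 of the other settings (adjusted p up to 0.106). Bysl (bystin), which is needed for the final trimming of small subunit RNA, fell with MS023 (-0.30, standard error 0.078, adjusted p = 0.0173), lost without MS023 2 or 3 (up to 0.0877), and was at -0.25 (standard error 0.078, adjusted p = 0.0685) with GSK3368715. It shares 361 bp of exon with Ccnd3 on the opposite strand, and as the use of strand in counting is not given in the sources used here, reads there cannot be assigned to either. The sum of Bysl and Ccnd3 changed by -0.15 with MS023 and by -0.076 with GSK3368715. Ccnd3 had the larger counts (mean 5307 against 2259 in the inhibitor experiment), so this sum does not settle the value of Bysl.

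Nob1, the endonuclease that makes the final cut in small subunit RNA, had 1395, 1381 and 1387 normalized counts in shControl libraries and 1439, 1185 and 1353 in shPrmt1 libraries (-0.07, standard error 0.082, adjusted p = 0.598 from limma). It had 3933, 3251 and 3302 with vehicle, 3343, 3108 and 3215 with MS023 and 3203, 3127 and 3529 with GSK3368715, groups that overlapped (-0.11 and -0.085). Without vehicle 1 these values were -0.025 and 0.0024. Pno1, Tsr1 and the methyltransferase Dimt1 did not pass in any comparison, at 0.17, 0.13 and 0.056 in the knockdown and -0.10, -0.14 and -0.20 with MS023. Dimt1 shares 1229 bp of exon with the more abundant Kif2a, and Tsr1 1240 bp with Srr, on opposite strands. As reads in these exons cannot be assigned to either gene, the value of Dimt1 alone is uncertain. The Dimt1 and Kif2a counts summed changed by 2e-04 with MS023, 0.052 with GSK3368715 and 0.17 in the knockdown. Kif2a had the larger counts (mean 7338 against 1702 in the inhibitor experiment), so the sum mostly follows Kif2a and does not settle the value of Dimt1.

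The 11 large subunit factors held the largest decrease of the list. Rrs1 (ENSMUSG00000061024, chr1:9545408-9547455, plus strand) works in the incorporation of a small ribonucleoprotein particle into the large subunit. It had 2939.7, 2729 and 2967 normalized counts in shControl libraries and 2505, 2355 and 2513 in shPrmt1 libraries. With means of 2878 ± 130.3 (SD, n = 3) and 2458 ± 88.8 (SD, n = 3), Rrs1 fell by 0.23 on the log2 scale (standard error 0.064, adjusted p = 0.047 from limma), which was lost with edgeR, under 3 of the other settings and without any library but shPrmt1 2 (adjusted p up to 0.189). Vehicle libraries held 5493, 5509 and 5422, MS023 libraries 3752, 3498 and 3476 and GSK3368715 libraries 4069, 3732 and 4229. The mean went from 5475 ± 46.4 (SD, n = 3) to 3575 ± 153 with MS023 and 4010.1 ± 254 with GSK3368715. These are differences of -0.62 (standard error 0.058, adjusted p = 8.32e-05) and -0.45 (standard error 0.058, adjusted p = 0.00179), and the adjusted p ran from 4.18e-19 to 0.000892 and from 6.85e-10 to 0.0105 over the alternatives.

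Pes1, Bop1 and Wdr12 form the PeBoW complex of large subunit maturation, of which Wdr12 alone passed a test. Wdr12 (ENSMUSG00000026019, chr1:60069785-60098645, minus strand) had 2275, 2328 and 2428 normalized counts in shControl and 2729, 2857 and 2649 in shPrmt1 libraries, an increase of 0.23 (standard error 0.061, adjusted p = 0.0422 from limma). This was lost without shControl 1, 2 or 3 or shPrmt1 1 or 3 and under 3 of the other settings (adjusted p up to 0.176). With vehicle Wdr12 had 4534, 4831 and 4345, with MS023 5289, 4701 and 4702 and with GSK3368715 5203, 4479 and 4808, overlapping groups at 0.10 (standard error 0.072, adjusted p = 0.339) and 0.079 (standard error 0.072, adjusted p = 0.538). Pes1 was at 3052, 3136 and 3429 in shControl and 3002, 2842 and 3070.3 in shPrmt1 libraries, -0.11 (standard error 0.067, adjusted p = 0.309), and at -0.059 without shControl 3. Its groups overlapped with the inhibitors as well, with 6861, 7405 and 7068 for vehicle, 6642, 6448 and 7097 for MS023 and 7186, 6811 and 7251 for GSK3368715 (-0.08 and -0.0056). Bop1 was at -0.11, -0.10 and -0.041 in the knockdown, with MS023 and with GSK3368715, none past the threshold.

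Nop2, a methyltransferase of large subunit RNA, had 5194, 4895 and 5168 normalized counts in shControl and 4879, 4067 and 5025 in shPrmt1 libraries (-0.13, standard error 0.085, adjusted p = 0.323), with shPrmt1 2 lowest, and the value was -0.038 without it. In the inhibitor experiment Nop2 had 8009.8, 9335 and 8684 with vehicle, 8969, 7267 and 7751 with MS023 and 8776, 7130.4 and 8225 with GSK3368715, and the groups overlapped (-0.12 and -0.11). The MS023 value was -0.067 without vehicle 2, -0.055 without MS023 2 and -0.21 without MS023 1. The GSK3368715 value was -0.17 without vehicle 1, -0.058 without vehicle 2, -0.18 without GSK3368715 1 and -0.028 without GSK3368715 2. Noc2l fell with MS023 (-0.23, standard error 0.074, adjusted p = 0.0443 from limma), but the call was lost in 12 of 20 alternatives, among them edgeR and the omission of any vehicle or MS023 library or of GSK3368715 3 (adjusted p up to 0.208). Noc3l, Nop16, Ddx18, Ppan and Grwd1 did not pass in any comparison. Their MS023 values ran from -0.24 (Ppan, adjusted p = 0.0625) to -0.10 (Ddx18, adjusted p = 0.274).

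The other genes of the pathway, 144 tested of 159 listed by role beside the 44 members, gave a background for these counts. MS023 lowered 52 of them (36.1%, beside 14.1% of all genes) and raised 1 (beside 13.7%). GSK3368715 lowered 18 (12.5%, beside 4.47%) and raised 0 (beside 5.16%). The knockdown lowered 7 (4.86%, beside 7.17%) and raised 2 (beside 7.5%). Medians were -0.15, -0.092 and -0.033. With MS023 the decreases covered 18 of 46 other small subunit genes, 22 of 55 other large subunit genes, 6 of 22 exosome and nuclease genes, 4 of 9 snoRNP assembly factors and 2 of 12 other RNA polymerase I genes. The largest were in Rpp40, a subunit of RNase P and MRP, at -0.60 (standard error 0.079, adjusted p = 0.000485 from limma), and Nvl, an ATPase of large subunit maturation, at -0.55 (standard error 0.12, adjusted p = 0.00851 from limma). Nvl was also the largest decrease with GSK3368715, at -0.61 (standard error 0.12, adjusted p = 0.0142 from limma), followed by the U3 snoRNP protein Imp3 at -0.39 (standard error 0.068, adjusted p = 0.00693 from limma).

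MS023 raised Pop1, another subunit of RNase P and MRP, from 2382 ± 433 to 3181 ± 271 (SD, n = 3) normalized counts, 0.43 (standard error 0.13, adjusted p = 0.0293 from limma). The knockdown lowered Rrp1b from 1838 ± 204 to 1185 ± 63.9 (-0.63, standard error 0.091, adjusted p = 0.00346 from limma) and Trmt112, a partner of several methyltransferases, by 0.42 (adjusted p = 0.0138). It raised Polr1f, a subunit of RNA polymerase I, by 0.37 (adjusted p = 0.0173) and Sbds, which acts in release of the last assembly factor from the large subunit, by 0.26 (adjusted p = 0.0313 from limma).

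**Figure D4:**
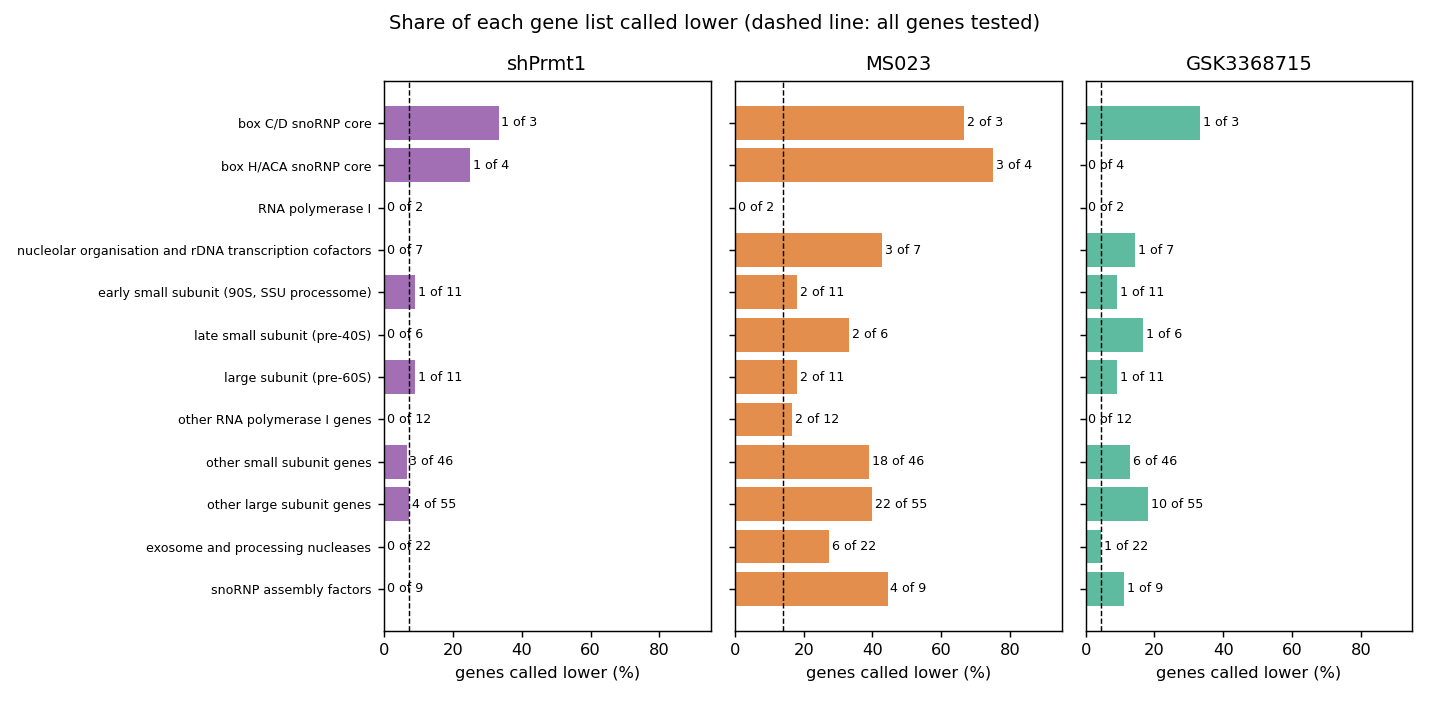
Share of each group of members (upper 7 rows) and of other pathway genes (lower 5 rows) called lower by limma at an adjusted p under 0.05 (x axis, percent), with the number called of the number tested; the dashed line is the share among all genes tested. With MS023 the other small and large subunit genes stand at 18 of 46 and 22 of 55, against 14.1% of all genes, while the early small subunit members (2 of 11), the large subunit members (2 of 11) and the other RNA polymerase I genes (2 of 12) lie near that line. Differences between groups were not tested.

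The knockdown and the inhibitors come from separate experiments with their own controls. Over the 44 members, their fold changes correlated at Pearson's r = 0.548 and Spearman's rho = 0.46 for MS023 and 0.512 and 0.439 for GSK3368715. Over all 11471 genes tested in both experiments these were 0.529 and 0.464, and 0.479 and 0.466, close to those of the members, and genes of 1 library are not independent replicates. Both the knockdown and MS023 values were below 0 in 28 members, and in 14 the knockdown value was above 0 and the MS023 value below. For GSK3368715 the numbers were 26 and 13. Rrs1 and Nop56 were called lower in all 3 comparisons, and Nop10 in the knockdown and with MS023. No member was called in opposite directions in any pair of comparisons.

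**Figure D5:**
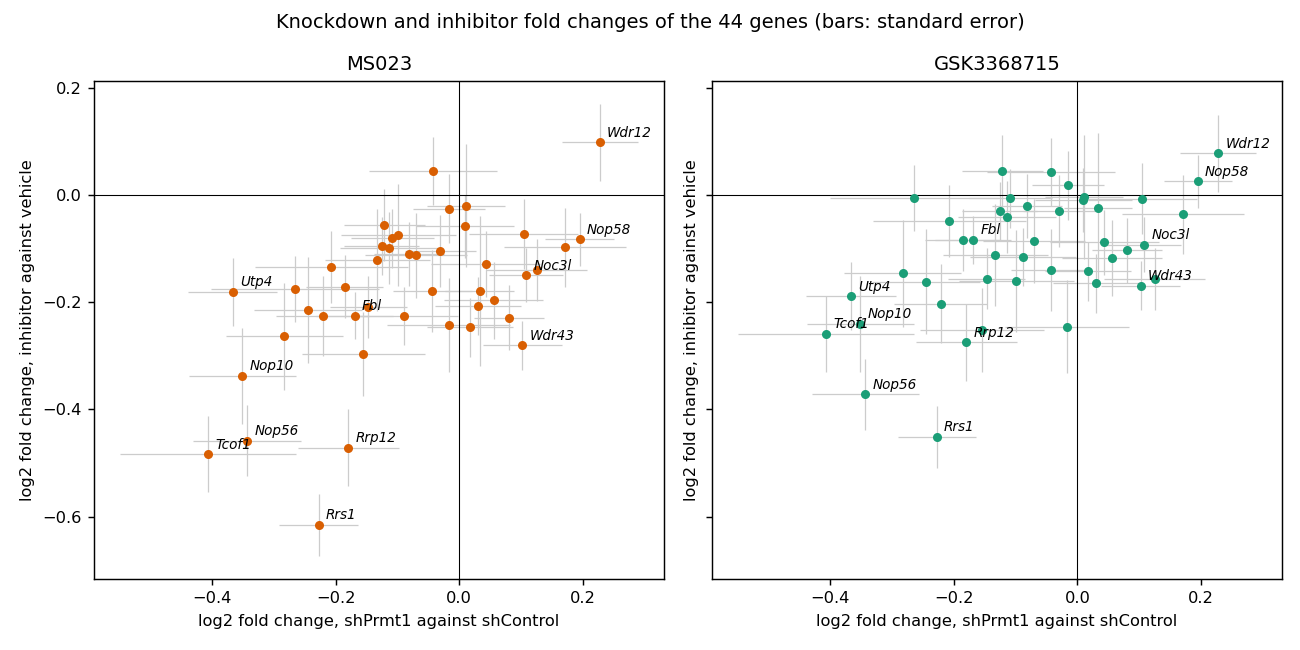
Log2 fold change of each of the 44 genes in the knockdown (x axis) against that with MS023 (left) or GSK3368715 (right), with standard errors as bars. Rrs1, Tcof1, Rrp12 and Nop56 lie lowest on the left, from -0.62 to -0.46 with MS023, and Nop58, Noc3l and Wdr43 have knockdown values above 0 with MS023 values below 0.

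Part of the list is known as MYC targets, and 19 of the 44 members are in a list of 57 MYC targets written by hand after the hallmark set v2. With MS023, 7 of these 19 and 7 of the other 25 members fell, beside 14.1% of all genes, with medians of -0.21 and -0.14. With GSK3368715 the numbers were 4 of 19 and 1 of 25, beside 4.47%, with medians of -0.11 and -0.088. In the knockdown they were 1 of 19 and 3 of 25, beside 7.17%, with medians of -0.13 and -0.043. The difference between members inside and outside this list was not tested.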

How the data were processed

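Polyadenylated RNA of CT26 cells was sequenced as paired reads in 15 libraries, described by the submitters as biological replicates. Per the labels and the study's methods, the authors quantified reads with Salmon 1.4.0 on mm10 and normalized with DESeq2 (version not given in the sources used here). The deposited signal is a gene count divided by the library's size factor, in 1 table per experiment. All values gave back whole reads at a tolerance of 0.001. Deposited tables of the authors' own fold changes and p-values were not used.

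Normalized counts were compared on log2(value + 1) with limma 3.58.1 in R 4.3.3 (moderated, with a variance trend, two-sided, Benjamini-Hochberg over all genes tested), so fold changes of low genes are understated. Genes needed 10 normalized counts in 3 libraries, and an adjusted p under 0.05 was a call. The knockdown had a fit of 6 libraries and the inhibitors one of 9. Alternatives were edgeR 4.0.16 (TMM, quasi-likelihood) and DESeq2 1.42.0 on recovered reads, other pseudocounts, filters and scalings, the replicate block and the omission of each library. The pipeline was tested on simulated data. Members and lists were chosen with earlier results of these data known. Values in every library were given for core members of each role and for the called members with the largest changes, and outside the list for the other pathway genes with the largest called changes. The non-coding snoRNA host genes of the lists were not analysed here.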

Additional observations from a re-analysis of the deposited data

Results flagged for a closer look

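Nop58 lay on opposite sides of its control in the knockdown and with MS023. Its shPrmt1 libraries all lay above its shControl libraries (log2 fold change 0.19, adjusted p = 0.0495 from limma), and its MS023 libraries all lay below its vehicle libraries (-0.0821, adjusted p = 0.247). Its GSK3368715 libraries all lay above its vehicle libraries, on the side of the knockdown (0.026, adjusted p = 0.784). Noc3l, a factor of large subunit assembly, lay opposite with both inhibitors, at 0.11 (adjusted p = 0.256) in the knockdown against -0.1489 (adjusted p = 0.0505) with MS023 and -0.0921 (adjusted p = 0.284) with GSK3368715. The tables were normalized separately and the differences between experiments were not tested. With 3 libraries a group, single outlying libraries were not tested for.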

How the results depend on the processing

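In the knockdown, the number of members called lower was 4, and it was 2 with equal totals (5.8% of all genes), 1 without the variance trend (5.43%) and 9 with the replicate block. Leaving out 1 library gave 0 to 6 (2.47% to 11.4%). The number called higher was 2, and it was 0 with no filter on low counts (4.17%), 0 with the same upper quartile (6.19%), 0 without the variance trend (6.2%), and 0 to 2 with 1 library left out (3.24% to 10.4%). With MS023 the 14 lower calls became 5 with the same upper quartile (8.3%) and 7 to 17 with 1 library left out (9.49% to 14.5%). With GSK3368715 the 5 became 3 with no filter (2.18%), 3 with the same upper quartile (2.68%), 3 with equal totals (3.81%), 2 without the trend (3.46%), 2 with only the groups compared (2.28%), and 2 to 4 with 1 library left out (2.03% to 4.88%). Percentages are shares of all genes tested under that setting. The causes were not tested. No member was called higher with an inhibitor, or called between the inhibitors, in any alternative run.

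The replicate block gave 9 lower and 2 higher calls in the knockdown (11.5% and 11.7% of all genes), 16 lower with MS023 (12.6%) and 4 with GSK3368715 (3.08%), and it brought Tcof1 in the knockdown past the threshold (adjusted p = 0.00786). Deviations of same-numbered libraries correlated at 0.061, 0.116 and 0.081 in the knockdown and from -0.102 to 0.113 with the inhibitors. The main fits did not pair libraries by number. In the knockdown, 6 of 6 libraries correlated best with their own number, so the knockdown libraries may be paired. With the inhibitors 4 of 18 comparisons did so.

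Signs under the alternatives were followed only for the core members and the called members with the largest changes. Among these members the sign changed in 33 values, none of them called. With the same upper quartile, Dkc1 was at -0.0079 and Polr1b at -0.0141 in the knockdown, Polr1a at 0.0031 and Polr1b at 0.0398 with MS023, and Gar1 at 0.006, Polr1b at 0.0087 and Pes1 at 0.0066 with GSK3368715. With equal totals, Polr1b was at 0.0154 with MS023, and Gar1 at 0.0084, Polr1b at 0.0111 and Pes1 at 0.009 with GSK3368715. For Polr1b with GSK3368715, edgeR gave 0.0112 and DESeq2 0.0085. With 1 library left out, some ranges of the members followed here crossed 0, and the other members were not followed. In the knockdown they were Dkc1 -0.02 to 0.0737, Polr1b -0.0077 to 0.0375 and Nob1 -0.1312 to 0.0087. With MS023 it was Polr1b, -0.0944 to 0.0472. With GSK3368715 they were Gar1 -0.0136 to 0.0024, Polr1a -0.0195 to 0.0992, Polr1b -0.139 to 0.0907, Utp20 -0.2064 to 0.0972, Nob1 -0.1378 to 0.0024 and Pes1 -0.0311 to 0.0239.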
